A study of Mus musculus with 11 samples.

Results

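The chromatin around 5 genes of the Notch pathway in T-cell development was described by ATAC-seq, an assay in which transposase insertions mark accessible DNA, and stretches dense in insertions are called as peaks. The genes were the receptors *Notch1* and *Notch3* and the targets *Dtx1*, *Hes1* and *Ptcra*. They were chosen by name, with earlier results of these data known. A peak belonged to a gene when it overlapped by at least 1 bp the gene's window, which was the mm10 gene body extended by 20 kb on each side. The 5 genes were among 21938 protein-coding genes. Their windows held 113 of the 298164 peaks of the 9 libraries, and these peaks merged into 29 of 71400 intervals where peaks of any library that shared at least 1 bp were joined.

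The libraries came from C57BL/6 mice between 4 and 8 weeks old, from sorted cells of 4 types. CD4 single positive thymocytes (CD4SP, 2 libraries) are conventional T cells late in their thymic development, and NKT thymocytes (2 libraries) are innate-like T cells that were enriched with CD1d-αGalCer tetramers. Bone marrow gave common lymphoid progenitors (CLP, 3 libraries), sorted without lineage markers, for IL-7Rα, high Flt3 and intermediate Sca-1 and cKit, and innate lymphoid cell precursors (ILCP, 2 libraries), sorted as Lin-IL-7Rα+α4β7+eGFP+, where eGFP came from a reporter inserted at *Zbtb16*. No treatment or deletion was part of these libraries, and the labels call the strain of the ILCP mice C57BL/6 without naming the reporter. The gene that the ILCP gate reads, *Zbtb16*, is not one of the 5 genes. The study describes its 2 or 3 libraries per type as biological replicates, and p-values between 2 types measure the spread between them. Thymus minus bone marrow compares 4 libraries with 5, and each tissue pools 2 cell types. The p-values of that comparison treat the libraries as independent replicates of a tissue, which libraries of one type are not. Every thymic library was from a T cell and every bone marrow library from a progenitor or precursor, so that tissue and lineage cannot be told apart.

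Notch receptors are membrane proteins that are cut after ligand binding. The freed intracellular part enters the nucleus and joins the DNA-binding protein RBPJ and Mastermind-like coactivators at target genes. In the thymus, Notch1 signalling in early progenitors drives commitment to the T lineage. Notch3 is expressed in immature thymocytes, and *Dtx1*, *Hes1* and *Ptcra* are known targets of the pathway there.

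The libraries held between 19343 (CLP replicate 1) and 41535 peaks (CLP replicate 2), and the study's methods give a single range of read numbers for all its ATAC-seq libraries and not the number of each, so that the lack of a peak is the lack of a call and no measure of closed chromatin. CLP replicate 1 stood apart. It shared 0.446 and 0.461 of the intervals open in either library with the other CLP libraries, against between 0.723 and 0.806 for the other pairs of one type. The ILCP libraries held the next lowest numbers of peaks, 26328 and 25771. Of the marker genes checked, the 5 of T cells (*Cd3e*, *Cd4*, *Cd28*, *Bcl11b*, *Themis*) had between 29 and 41 peaks in sum in the thymic libraries and between 5 and 12 in the bone marrow ones. *Zbtb16*, which NKT and ILCP express, had 13 and 12 peaks in NKT against 3 and 3 in CD4SP, and 7 and 9 in ILCP against 0, 7 and 2 in CLP. The whole NKT list (*Zbtb16*, *Tbx21*, *Il2rb*, *Klrb1c*) had 21 and 22 peaks in NKT and 13 and 17 in CD4SP, with *Klrb1c* lower in NKT (4 and 5 against 7 and 9). The ILCP list of 6 genes had 31 and 26 peaks in ILCP and 11, 29 and 23 in CLP, and the CLP list of 5 genes had 18, 33 and 34 in CLP and 22 and 17 in ILCP, so that these sums overlapped between both types. The 4 markers of immature double negative and double positive thymocytes (*Rag1*, *Rag2*, *Cd8a*, *Cd8b1*) had 14 and 14 peaks in CD4SP, 4 and 10 in NKT, 6, 15 and 15 in CLP, and 6 and 5 in ILCP, and *Cd8a* was without a peak in both NKT libraries. These sums are over gene windows, and a peak in the windows of 2 genes counts for each. The neighbours *Rag1* and *Rag2* both had 5 and 4 peaks in CD4SP. The 3 B-cell markers had between 4 and 8 peaks in each library, the 4 myeloid markers between 1 and 10 and the 3 erythroid markers between 5 and 8. The part of these markers, and of the number of peaks called, in the results on the 5 genes was not tested, beyond the equal peak numbers given beside them.

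The intervals were numbered along each gene in the direction of transcription. Sequences are shown for the intervals that separated tissues or cell types, for intervals over or next to start sites, and for the strongest *Dtx1* interval, since these carry the differences described afterwards. Intervals were read from mm10 (GRCm38.p6) and promoters from RefSeq on the same build, all on the strand of the gene, 5′ to 3′, and capitals mark every match on either strand to 3 motifs: TGGGAA, the core of the RBPJ motif, TGTGGT or TGCGGT for Runx factors, and CAGCTG or CAGGTG for E-box proteins. For interval sequences the coordinates are those of the printed bases, the central 200 of the interval unless stated. *Notch1* interval 1 (chr2:26513450-26513649, minus strand, upstream of the principal transcript and within an intron of a longer one) and *Notch3* interval 2 (chr17:32164190-32164389, minus strand, intron 1 running into exon 2) were open in every CLP library and in no ILCP library. *Dtx1* interval 4 (chr5:120688492-120688691, minus strand, intron 3) and interval 2 (chr5:120711928-120712127, minus strand, the bases just upstream of the annotated start) were open in every thymic library and in no bone marrow library. For interval 2 the printed stretch is at its upstream edge, and the peak of NKT replicate 1 covered 86 of the 200 printed bases and neither marked motif, that of CD4SP replicate 1 covered 186 and the RBPJ core, and those of CD4SP replicate 2 and NKT replicate 2 covered all 200. *Dtx1* interval 5 (chr5:120685759-120685958, minus strand, intron 3) and *Hes1* interval 1 (chr16:30064137-30064336, plus strand, upstream of the principal transcript) were added after their values were seen. *Hes1* interval 2 covers the annotated start, and its central 300 bases (chr16:30065014-30065313, plus strand, widened after the central 200 were seen) end just upstream of it. The promoters of *Notch1* (chr2:26503823-26504072) and *Notch3* (chr17:32166891-32167140), both on the minus strand, are the 250 bases before the start in RefSeq, and that of *Dtx1* is not shown because it lies in the transcript's untranslated first exon.
Notch1 interval 1: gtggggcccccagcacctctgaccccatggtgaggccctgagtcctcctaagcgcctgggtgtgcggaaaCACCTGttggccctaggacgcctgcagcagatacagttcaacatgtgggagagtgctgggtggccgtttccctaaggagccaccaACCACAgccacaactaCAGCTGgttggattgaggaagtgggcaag
Notch1 promoter: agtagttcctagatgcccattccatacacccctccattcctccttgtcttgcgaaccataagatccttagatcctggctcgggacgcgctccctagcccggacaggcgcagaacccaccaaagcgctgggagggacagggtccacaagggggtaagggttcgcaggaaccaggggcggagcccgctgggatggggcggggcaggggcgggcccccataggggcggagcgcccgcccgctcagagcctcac
Notch3 interval 2: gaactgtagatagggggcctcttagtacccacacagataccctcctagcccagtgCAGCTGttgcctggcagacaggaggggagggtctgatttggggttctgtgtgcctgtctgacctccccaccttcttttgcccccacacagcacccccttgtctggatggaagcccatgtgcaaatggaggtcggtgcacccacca
Notch3 promoter: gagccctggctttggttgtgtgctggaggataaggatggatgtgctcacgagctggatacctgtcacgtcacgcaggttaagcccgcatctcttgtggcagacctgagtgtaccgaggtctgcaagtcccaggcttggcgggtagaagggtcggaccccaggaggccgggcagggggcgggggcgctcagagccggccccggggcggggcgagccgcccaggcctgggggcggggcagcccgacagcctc
Dtx1 interval 2: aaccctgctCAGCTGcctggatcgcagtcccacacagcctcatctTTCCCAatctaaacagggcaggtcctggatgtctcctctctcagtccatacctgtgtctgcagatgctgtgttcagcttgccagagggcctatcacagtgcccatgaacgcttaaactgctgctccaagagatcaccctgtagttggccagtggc
Dtx1 interval 4: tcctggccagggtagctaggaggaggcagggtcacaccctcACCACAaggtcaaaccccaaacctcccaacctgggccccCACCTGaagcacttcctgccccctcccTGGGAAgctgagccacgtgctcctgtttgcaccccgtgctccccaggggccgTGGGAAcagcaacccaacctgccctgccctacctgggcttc
Dtx1 interval 5: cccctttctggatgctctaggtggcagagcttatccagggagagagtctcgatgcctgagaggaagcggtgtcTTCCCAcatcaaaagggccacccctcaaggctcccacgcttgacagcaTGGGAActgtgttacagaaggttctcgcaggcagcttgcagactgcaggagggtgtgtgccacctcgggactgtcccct
Hes1 interval 1: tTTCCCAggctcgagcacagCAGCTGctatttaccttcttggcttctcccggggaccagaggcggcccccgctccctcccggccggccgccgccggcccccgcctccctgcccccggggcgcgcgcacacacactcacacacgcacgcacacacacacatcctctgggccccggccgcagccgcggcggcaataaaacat
Hes1 interval 2: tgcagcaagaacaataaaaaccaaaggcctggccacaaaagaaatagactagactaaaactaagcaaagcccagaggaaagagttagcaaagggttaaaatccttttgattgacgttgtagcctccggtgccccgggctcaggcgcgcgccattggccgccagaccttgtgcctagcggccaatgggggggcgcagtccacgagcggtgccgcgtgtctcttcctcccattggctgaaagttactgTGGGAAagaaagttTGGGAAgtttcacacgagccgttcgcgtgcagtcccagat

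Within the central 200 bp of the intervals, the RBPJ core was found in 6 of 29, against 13.7% of 71398 intervals of the genome. The 6 were 3 of the 8 intervals of *Dtx1*, 2 of the 5 of *Notch3* and 1 of the 4 of *Hes1*. Intervals 4, 5 and 7 of *Dtx1* each held 2 matches. *Hes1* interval 2 held none in its central 200 bp and 2 in its central 300 bp, at bases 247 to 252 and 261 to 266 of the printed sequence, where 20.8% of all intervals held at least 1 at that length. Runx motifs were found in 5 of 29 intervals (30% of all) and E-boxes in 11 of 29 (27.8% of all). Both printed promoters held none of the 3 motifs. The 250 bases before the RefSeq start of *Ptcra* held 2 RBPJ cores and 2 E-boxes, and no library had a peak there, and 21.6% of 32851 RefSeq promoters held the RBPJ core over that length. A match is a string of letters and does not show binding.

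*Notch1* encodes the receptor whose signal starts the T-cell programme. Its gene lies at chr2:26457903-26516663 on the minus strand (ENSMUSG00000026923.15), and the principal transcript has 34 exons. Its window held 4 and 5 peaks in CD4SP, 3 and 7 in NKT, 3, 5 and 5 in CLP, and 2 and 2 in ILCP. Both ILCP libraries were below every CLP library, whereas the CD4SP and NKT libraries overlapped. The mean was 2 ± 0 peaks (SD, n = 2) in ILCP and 4.33 ± 1.15 (n = 3) in CLP, which differed by -2.33 (p = 0.2 in a two-sided exact permutation test, adjusted p = 0.829 by Benjamini-Hochberg over 17731 genes), in a design that cannot go below p = 0.1. When each library was cut to its 19343 highest-scoring peaks, the CLP libraries held 3, 4 and 3 peaks and the ILCP libraries 1 and 2, which still did not overlap, beside 11.4% of genes lower in ILCP at that number. CD4SP then held 3 and 3 peaks and NKT 2 and 2, which no longer overlapped (difference -1, exact permutation test p = 0.333, the smallest possible).

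The 9 intervals of *Notch1* differed in the libraries that opened them. Score ranks are given as an upper percent, the rank from the highest score as a percent of the library's number of peaks. Low values are strong peaks, and tied scores all take the best rank. Interval 3 covered the start site. It was at 25.8 and 16.8 in CD4SP, 31.9 and 12.2 in NKT, 38.3 and 50.3 in CLP replicates 2 and 3, and 74.2 in ILCP replicate 2. It lacked a peak in CLP replicate 1 and ILCP replicate 1, the first of which held the fewest peaks of all libraries. All 4 thymic values were stronger than the 3 bone marrow values.

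Intervals 2, 4 and 5 of *Notch1*, at -3.82, 5.78 and 10.2 kb from the start site (the latter pair in intron 2), were open in thymic libraries and in no bone marrow library. Interval 5 ranked at 55.5 in CD4SP replicate 1, 48.7 in CD4SP replicate 2 and 54.2 in NKT replicate 2, and had no peak in NKT replicate 1. Interval 2 was open in the same 3 libraries, at 92.2, 59.7 and 50.3. Interval 4 was open in CD4SP replicate 2, NKT replicate 1 and NKT replicate 2, at 54.2, 73.5 and 95.2. Each of the 3 was thus missing from 1 thymic library, and none separated NKT from CD4SP.

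Interval 1 of *Notch1*, -9.76 kb from the start site, had the opposite pattern. It ranked at 45.2, 22.7 and 26.2 in the CLP libraries and had no peak in the ILCP, CD4SP or NKT libraries. Interval 6 in intron 4, at 20.3 kb, ranked at 83.1, 36.6 and 28.2 in CLP, at 98.1 in ILCP replicate 1 and at 88.1 in NKT replicate 2. Interval 7 in intron 18 was open in CLP replicates 2 and 3 alone, near the bottom of their ranks (89.8 and 94.9), and interval 8, at 54.1 kb, in NKT replicate 2 alone, at 99.8. Interval 1 was therefore open in CLP alone, whereas interval 6 was open in all 3 CLP libraries and, as a weak peak, in 1 NKT and 1 ILCP library.

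**Figure D1:**
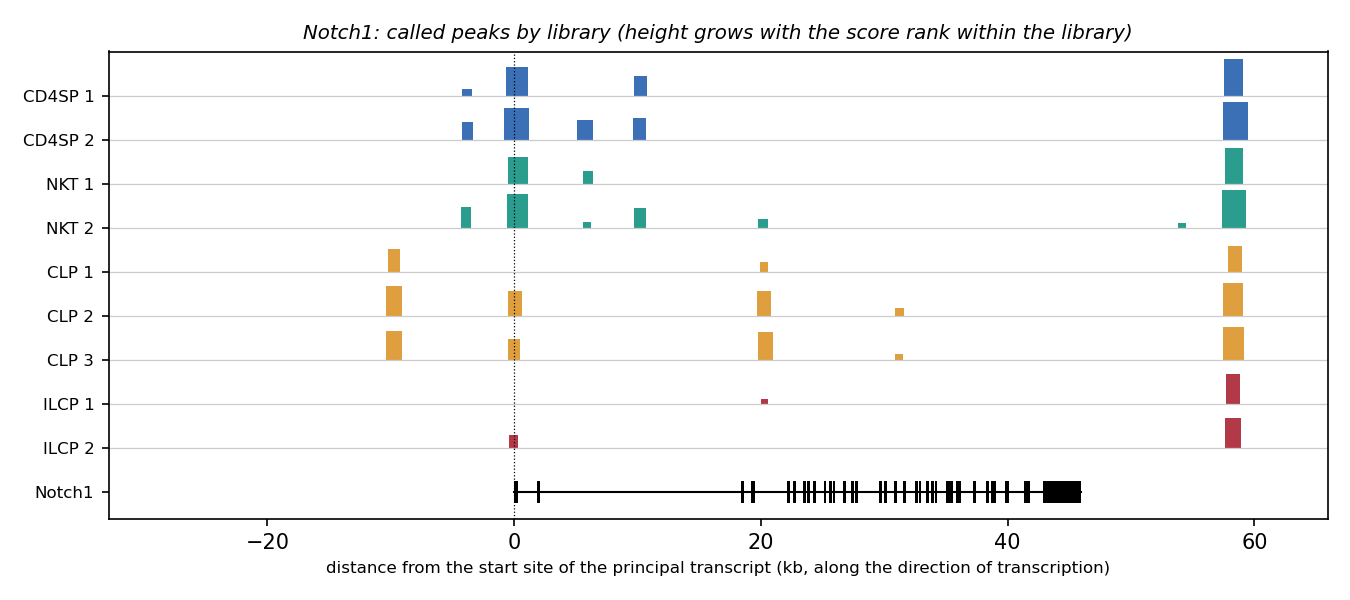
Called peaks at *Notch1*, 1 line per library, with distance from the start site in kb on the x axis and exons as black boxes on the lowest line. Bar height rises linearly with the score rank within the library, above a small minimum height. The peak at -9.76 kb is seen in the 3 CLP libraries, and those at -3.82, 5.78 and 10.2 kb in thymic libraries.

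The strongest interval of the *Notch1* window, interval 9, covered the start of the neighbouring gene *Sec16a* and was open in all 9 libraries. Its upper percent was 1.78 and 0.261 in CD4SP, 5.48 and 0.173 in NKT, 33.7, 13.6 and 14.4 in CLP, and 21.5 and 21.3 in ILCP. The peaks of CD4SP replicate 2 and NKT replicate 2 had the same score, 3100, and how many other peaks tied with them was not counted. The 4 thymic libraries were stronger than all 5 bone marrow ones. The mean was 1.93 ± 2.49 (SD, n = 4) in thymus and 20.9 ± 8.06 (n = 5) in bone marrow (exact permutation test, two-sided, p = 0.00794, the smallest that 4 against 5 allows, adjusted p = 0.0483 over the 9464 intervals open in all libraries). Of those intervals, 16.4% passed the same threshold. With any 1 library left out the difference stayed between -20.8 and -15.8, against -19.0 with all 9, and the adjusted p of the exact permutation test was between 0.0778 and 0.117, where fewer libraries also raise the smallest p. It also passed among shared intervals only and in absolute rank (adjusted p = 0.032 and 0.0333, exact permutation test), where 33.6% and 34.1% of the intervals passed. Of the 3 intervals tested for rank in the 5 windows, the one that passed was therefore at the start of another gene.

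*Notch3* encodes a second receptor. Its gene lies at chr17:32120820-32166852 on the minus strand (ENSMUSG00000038146.8). The window held 0 and 4 peaks in CD4SP, 1 and 2 in NKT, 1, 2 and 2 in CLP, and 0 and 0 in ILCP. ILCP was the 1 cell type without a peak in either library, and its libraries were below every CLP library (means 0 ± 0 and 1.67 ± 0.577, difference -1.67, exact permutation test p = 0.2, adjusted p = 0.829). At 19343 peaks per library CLP held 1, 1 and 1 and ILCP 0 and 0, which did not overlap. With the higher-scoring 50% of peaks CLP held 0, 1 and 1 and ILCP 0 and 0, which overlapped. The CD4SP replicates differed from each other as much as any pair of libraries.

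Interval 2 of *Notch3*, with its midpoint in intron 1, ranked at 99.9 in CLP replicate 1 and at 33.7 and 35.5 in CLP replicates 2 and 3. It had no ILCP or NKT peak and 1 weak CD4SP peak, at 95.4 in replicate 2. Interval 4, whose midpoint lay in coding exon 24, was open in CD4SP replicate 2, both NKT libraries and CLP replicates 2 and 3, with ranks between 61.0 and 87.3. The start site itself (interval 1) and interval 3 in intron 2, at 4.51 kb, were open in CD4SP replicate 2 alone, at 91.7 and 64.6, and interval 5, at 52.7 kb, in NKT replicate 2 alone, at 99.5. Of the 12 *Notch3* peaks, the strongest were thus the intronic ones of CLP replicates 2 and 3.

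Between ILCP and CLP, 2 of the 5 genes did not overlap, both lower in ILCP, where 9.69% of 17731 genes were lower and 4.53% higher without overlap. Without CLP replicate 1 the count was 4 of 5, with *Hes1* and *Ptcra*, beside 46.3% of genes lower in ILCP. With *Ptcra* it was 3 of 5 per 10000 peaks (18.5% of genes) and in covered base pairs (23.6%). The median difference over the 5 genes was -1.17 peaks, beside -0.5 over all genes tested. It was -0.5 (all genes -0.5) without CLP replicate 3 and -2 (all genes -1) without CLP replicate 1, and 0 for both at 19343 peaks per library. Of the 29 intervals, 2 were open in every CLP library and in no ILCP library, the sequences of *Notch1* interval 1 and *Notch3* interval 2 above, beside 5.97% of all intervals, and 0 were specific to ILCP (6.34% of all). Without CLP replicate 1 the 2 became 6, adding *Notch1* interval 7, *Notch3* interval 4, *Hes1* interval 4 and *Ptcra* interval 2, beside 22.2% of all intervals. No gene reached an adjusted p under 0.05 in this comparison, nor an unadjusted exact p under 0.05, which 2 against 3 libraries cannot give.

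*Dtx1* encodes Deltex1, a ubiquitin ligase that modulates Notch signalling and is induced by it. Its gene lies at chr5:120680202-120711927 on the minus strand (ENSMUSG00000029603.15). The window held 3 and 8 peaks in CD4SP, 5 and 8 in NKT, 0, 0 and 0 in CLP, and 0 and 1 in ILCP. Every thymic library was above every bone marrow library. The mean was 6 ± 2.45 peaks (SD, n = 4) in thymus and 0.2 ± 0.447 (n = 5) in bone marrow, which differed by 5.8 (p = 0.00794 in a two-sided exact permutation test, the smallest possible, adjusted p = 0.0618). The same lack of overlap was found in 12.8% of genes, higher in thymus, and in 3.54%, lower in thymus. Per 10000 peaks of the library the thymic values were 0.892, 2.11, 1.44 and 2.06, the ILCP values 0 and 0.388 and the CLP values 0, and the adjusted p of this measure was 0.0495 by exact permutation test, where 16% of all genes passed. At 19343 peaks per library the thymic libraries held 1, 2, 1 and 2 peaks and the bone marrow libraries 0, which leaves 1 or 2 of the thymic peaks among the stronger ones of each library.

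All 8 intervals of *Dtx1* were open in CD4SP replicate 2 and NKT replicate 2. Interval 5 in intron 3, at 26.1 kb from the start site, was the strongest, with an upper percent of 27.4 and 22.1 in CD4SP and 26.1 and 25.5 in NKT. Its 1 bone marrow peak, in ILCP replicate 2, ranked at 94.4. Interval 4 in the same intron, 23.2 kb from the start, ranked at 89.5 and 53.6 in CD4SP and at 79.2 and 58.4 in NKT. Interval 2, over the start site, ranked at 91.2 and 47.2 in CD4SP and at 74.0 and 36.0 in NKT. Interval 5 was thus stronger than the start-site interval in all 4 thymic libraries and interval 4 in 1 of them, and no bone marrow library had a peak at the start.

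The weaker intervals of *Dtx1* followed the same libraries. Interval 3 in intron 2 and interval 7, which lay within the neighbouring gene *Rasal1*, were open in 3 thymic libraries each. Interval 1 upstream, interval 6 in the last exon and interval 8 within *Rasal1* were open in 2 each, the second replicates of CD4SP and NKT. Those were the thymic libraries with the most peaks, 37909 and 38793, against 33648 and 34701 in the first replicates. As deposited, NKT and CD4SP differed at *Dtx1* by less than their replicates did. With 33648 peaks from each thymic library, a setting chosen after seeing the data, CD4SP held 3 and 4 peaks and NKT 5 and 7, which did not overlap (difference 2.5, exact permutation test p = 0.333, the smallest possible), and with 19343 peaks both types held 1 and 2.

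**Figure D2:**
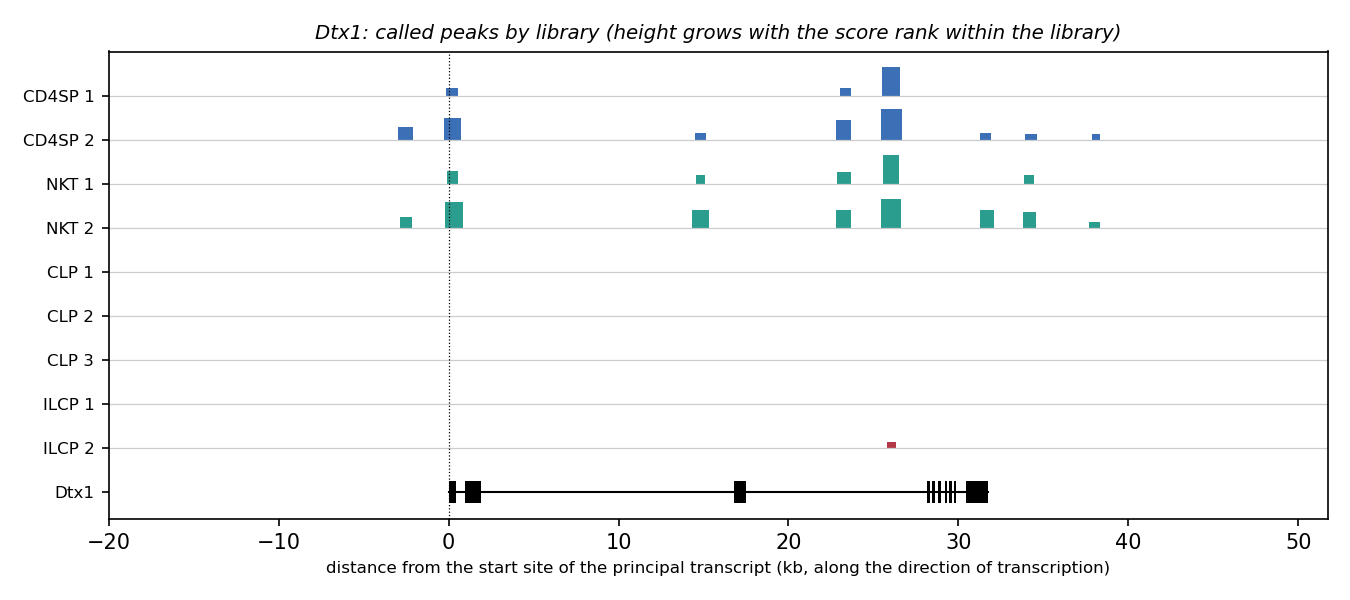
Called peaks at *Dtx1*, 1 line per library, with distance from the start site in kb on the x axis and exons as black boxes on the lowest line. Bar height rises linearly with the score rank within the library, above a small minimum height. The 4 thymic libraries show peaks at the start site and at 23.2 and 26.1 kb, and the bone marrow libraries show 1 peak in all.

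*Hes1* encodes a transcriptional repressor and is a direct Notch target in many tissues. Its gene lies at chr16:30064384-30067796 on the plus strand (ENSMUSG00000022528.8), and distances are from the principal transcript's start at 30065340. The window held 1 and 3 peaks in CD4SP, 2 and 3 in NKT, 1, 3 and 4 in CLP, and 1 and 2 in ILCP. All 4 cell types overlapped, and the tissue means, 2.25 ± 0.957 (n = 4) and 2.2 ± 1.3 (n = 5), differed by 0.05 (exact permutation test p = 1). The direction turned with equal peak numbers, where each bone marrow library held 1 *Hes1* peak and each thymic library 0 (exact permutation test p = 0.00794, adjusted p = 0.0521).

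Interval 3 of *Hes1*, whose midpoint lay in intron 3, was open in all 9 libraries. Its upper percent was 79.1 and 51.9 in CD4SP, 83.4 and 68.9 in NKT, 67.3, 51.6 and 48.2 in CLP, and 56.9 and 56.3 in ILCP. The tissues overlapped, with means of 70.8 ± 14.0 in thymus and 56.1 ± 7.22 in bone marrow (exact permutation test p = 0.0873, adjusted p = 0.179). Interval 1, -1.34 kb from the start site, was strongest in CLP replicates 2 and 3, at 41.4 and 37.7, and ranked between 64.6 and 95.5 in the 4 other libraries that opened it. A peak over the principal transcript's start, interval 2, was called in CLP replicate 3 alone, at 90.9, while interval 1 covered the start of another annotated *Hes1* transcript and interval 3 those of 2 more. No *Hes1* interval was open in thymic libraries only, whereas 14 of the 29 intervals of the 5 genes were.

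*Ptcra* encodes the pre-T-cell receptor α chain, which pairs with the newly made TCRβ chain in immature thymocytes. Its gene lies at chr17:46755663-46763712 on the minus strand (ENSMUSG00000036858.8). The window held 3 peaks in each thymic library, 1, 2 and 3 in CLP, and 1 and 1 in ILCP (thymus 3 ± 0, bone marrow 1.6 ± 0.894, difference 1.4, exact permutation test p = 0.0476, adjusted p = 0.155). None of these peaks was at *Ptcra* itself. The 3 intervals, at -19.2, -9.02 and 11.7 kb, covered the starts of the neighbouring genes *Rpl7l1*, *2310039H08Rik* and *Cnpy3*. The peak numbers of the *Ptcra* window are therefore those of its neighbours, and no library, thymic or bone marrow, had a peak in the *Ptcra* gene or in the 250 bases before its start.

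The interval at *Cnpy3* was open in all libraries, at an upper percent of 10.4 and 2.87 in CD4SP, 10.5 and 2.84 in NKT, 37.1, 22.3 and 18.4 in CLP, and 50.5 and 33.9 in ILCP. Thymic values were all stronger than bone marrow values (means 6.67 ± 4.41 and 32.4 ± 12.7, exact permutation test p = 0.0159, adjusted p = 0.0629). Among the intervals open in all libraries, 23.1% had better ranks in thymus without overlap and 8.04% poorer ranks.

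**Figure D3:**
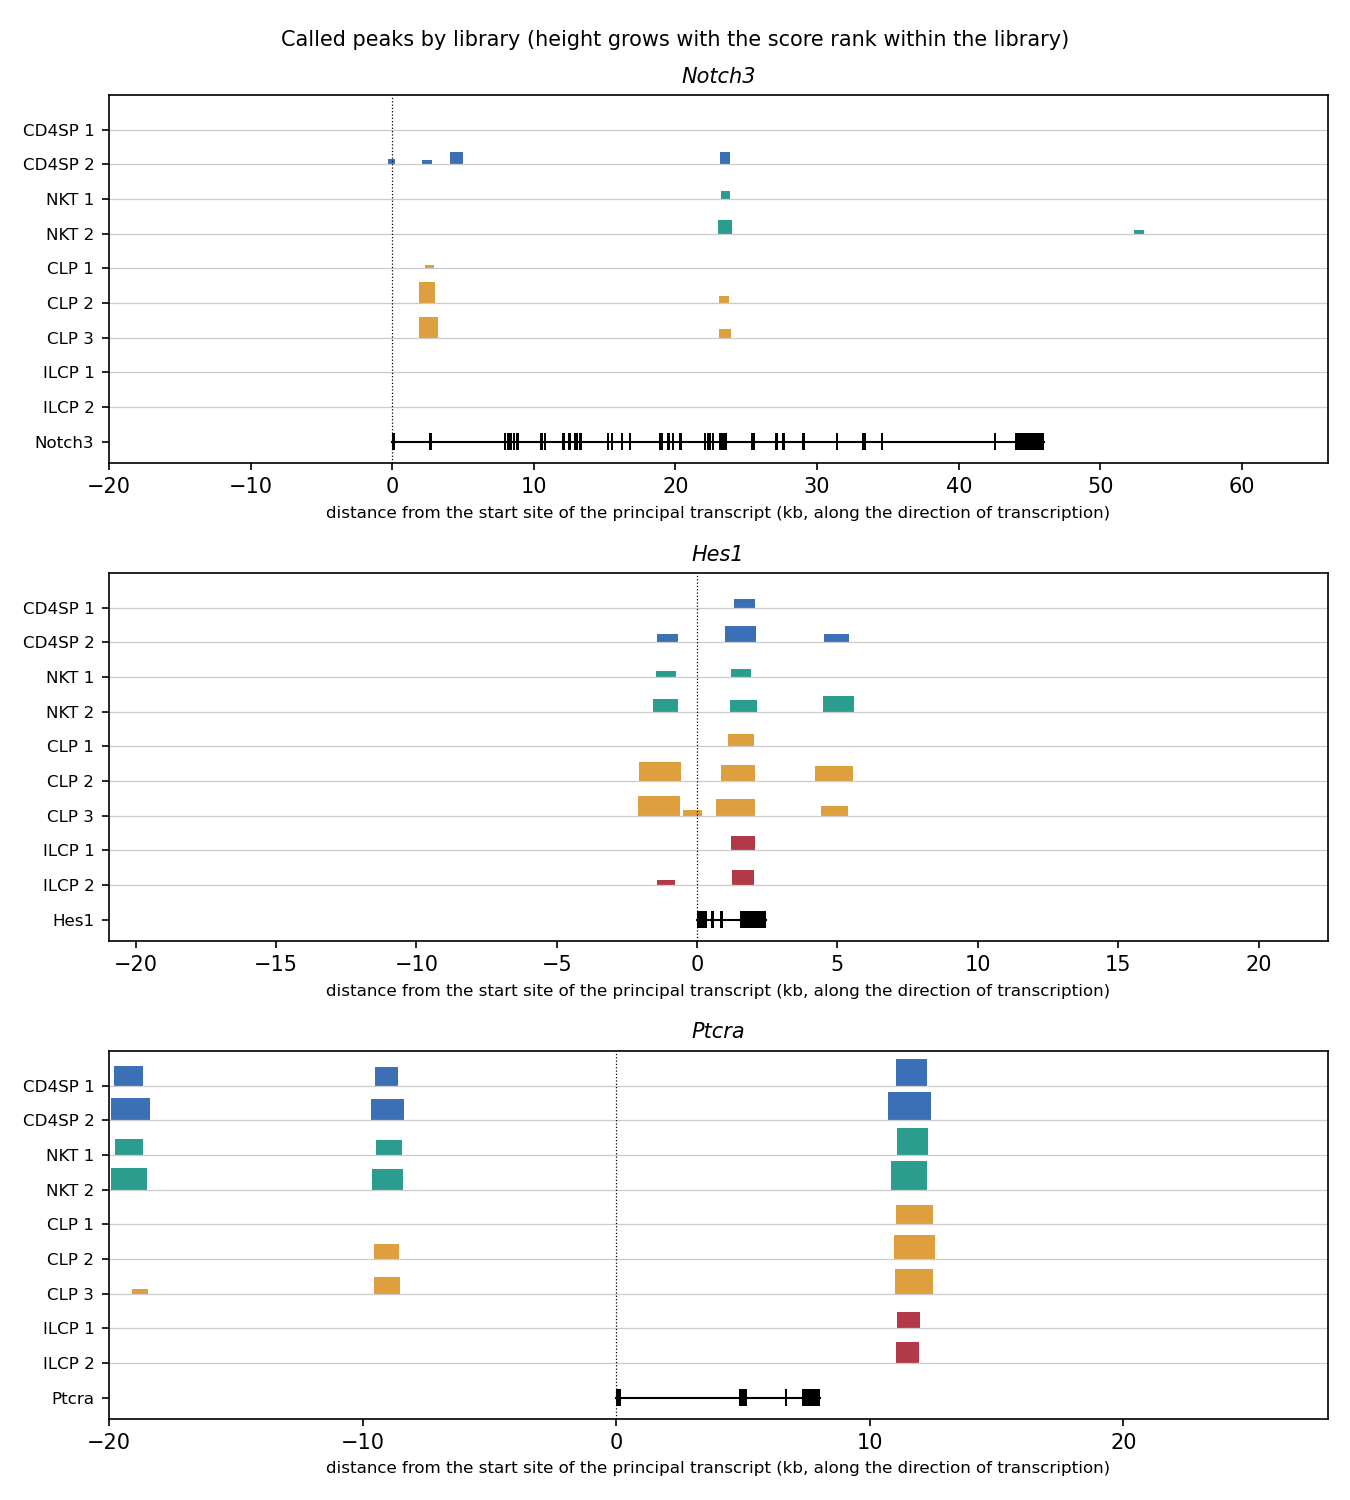
Called peaks at *Notch3*, *Hes1* and *Ptcra*, 1 line per library, with distance from each gene's start site in kb on the x axis and exons as black boxes on the lowest line. Bar height rises linearly with the score rank within the library, above a small minimum height. No bar lies over the exons or introns of *Ptcra*, the ILCP lines of *Notch3* are empty, and the *Hes1* peak 1.40 kb after the start is present in all 9 libraries.

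**Figure D4:**
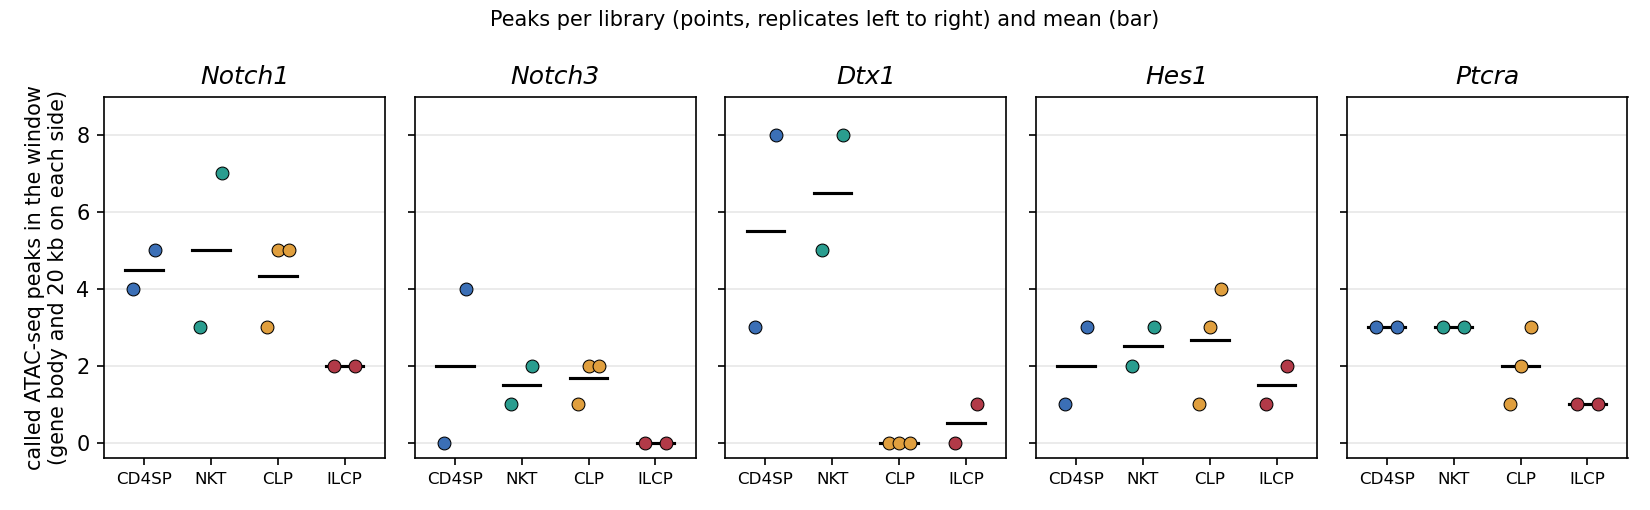
Number of called peaks in the window of each gene (y axis) by cell type (x axis), with 1 point per library and the mean as a bar. The 4 thymic points of *Dtx1* lie between 3 and 8 and the 5 bone marrow points at 0 or 1, whereas the *Hes1* points of all types lie between 1 and 4.

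Between thymus and bone marrow, 1 of the 5 genes (*Dtx1*) did not overlap, and 2 of 5 (*Dtx1* and *Ptcra*) had an unadjusted exact p under 0.05, beside 23.7% of genes that passed with higher values in thymus and 7.09% with lower. No gene of the genome reached an adjusted p under 0.05 with peak numbers as deposited. The median difference was 1.35 peaks over the 5 genes and 0.45 over all genes tested. It was 0.667 (all genes 0.4) without NKT replicate 2 and -0.1 (all genes 0.1) at 19343 peaks per library. At that number *Dtx1* and *Ptcra* were higher in thymus without overlap and *Hes1* lower, beside 10.5% and 6.9% of genes. Of the 29 intervals, 2 were open in all thymic and no bone marrow libraries, both of *Dtx1*, beside 7.04% of all intervals, and 0 were open in all bone marrow and no thymic libraries (2.04% of all). Opened in thymic libraries only were 14 intervals (27.0% of all intervals), of which 7 were of *Dtx1*, and opened in bone marrow libraries only were 3 (33.6% of all). All 9 libraries opened 3 (13.3% of all), and 5 were seen in a single library (18.0% of all).

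Between NKT and CD4SP, all 5 genes overlapped in peak numbers as deposited, where 8.83% of genes were higher and 6.15% lower in NKT. The differences in mean peak number were 0.5 for *Notch1*, -0.5 for *Notch3*, 1 for *Dtx1*, 0.5 for *Hes1* and 0 for *Ptcra* (exact permutation test p = 1 for each), in a design that cannot go below p = 0.333. With equal peak numbers 1 gene in each setting did not overlap, *Notch1* lower in NKT at 19343 peaks (beside 4.46% of genes) and *Dtx1* higher in NKT at 33648 peaks per thymic library (beside 8.38%). Without CD4SP replicate 2, *Notch3*, *Dtx1* and *Hes1* were higher in NKT without overlap (differences 1.5, 3.5 and 1.5, beside 21.9% of genes). *Notch3* was lower without CD4SP replicate 1 (-2.5, 16.4%). *Notch1* was higher without NKT replicate 1 (2.5, 23.7%) and lower without NKT replicate 2 (-1.5, 16.2%). No interval was open in both libraries of one type and in neither of the other, in either direction (beside shares of all intervals of 4.3% for NKT and 3.46% for CD4SP). The differences between NKT and CD4SP were also set against those between ILCP and CLP, and the exact permutation p of that comparison was between 0.2 and 1 over the 5 genes, where 0.0167 was the smallest possible.

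**Figure D5:**
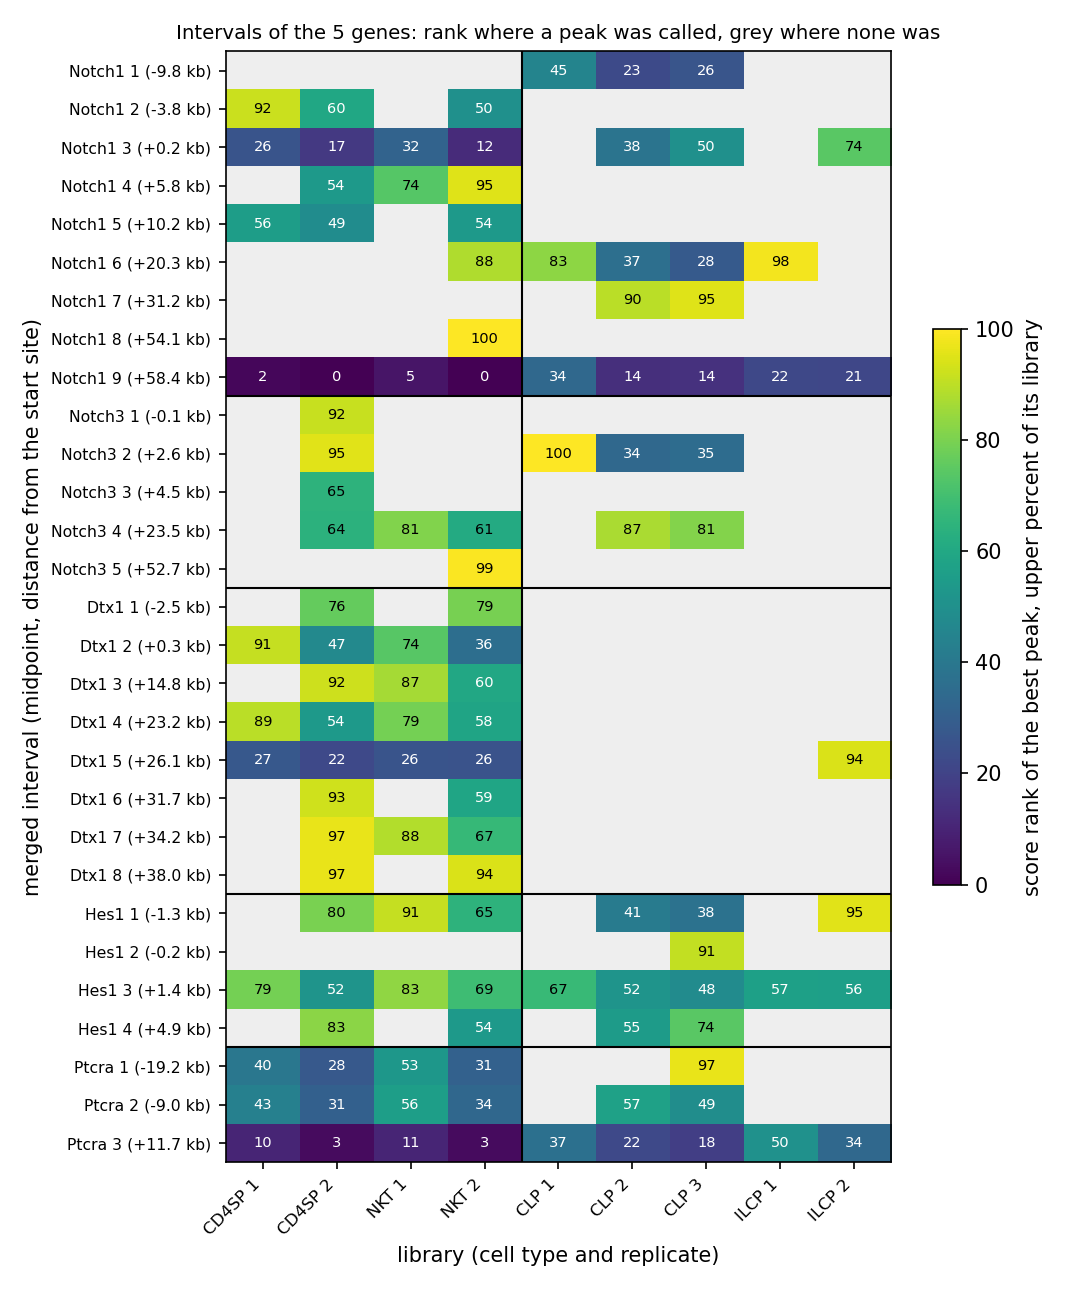
Score rank of the best peak in each of the 29 intervals (lines) in each of the 9 libraries (columns), as upper percent of the library's peaks, with grey where no peak was called and the distance from the start site in kb beside each interval. Low values are strong peaks. *Dtx1* intervals 2, 4 and 5 are filled in all 4 thymic columns and its other lines in 2 or 3 of them, with 1 bone marrow entry at 94.4, and the strongest entries of the map, at most 10.5 in every thymic library, are at the *Sec16a* and *Cnpy3* starts.

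The other genes of the pathway were counted in the same way, over a list of 44, all of which were tested. Between thymus and bone marrow 4 did not overlap, all higher in thymus, and 8 had an unadjusted exact p under 0.05, beside 23.7% of all genes that passed as higher in thymus and 7.09% as lower. *Rfng*, a Fringe glycosyltransferase that modifies Notch receptors, had 2 and 4 peaks in CD4SP, 1 and 4 in NKT and 0 in each bone marrow library. *Pofut1*, which adds the fucose that Fringe extends, had 5 and 5, 5 and 4, and 1 or 2 in bone marrow. *Numb*, an endocytic inhibitor of Notch, had 2 peaks in each thymic library and 1 in each bone marrow library, and *Tcf7*, the Notch-induced transcription factor TCF-1, had 7 and 10 in CD4SP, 4 and 6 in NKT, 0, 2 and 2 in CLP and 1 and 1 in ILCP. The count of 4 in 44 stands beside 12.8% of all genes and is no excess over them, and in unextended windows it was 2 beside 8.27%.

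Between NKT and CD4SP, 8 of the 44 were higher in NKT without overlap and 3 lower, beside 8.83% and 6.15% of all genes. At 19343 peaks per library the counts were 3 higher and 6 lower (5.67% and 4.46% of genes), in covered base pairs 6 and 6 (11.1% and 14.2%) and per 10000 peaks 10 and 6 (11.1% and 16.1%). They were 8 and 3 with 33648 peaks from each thymic library (8.38% and 7.07%) and 4 and 2 with the higher-scoring 50% (5.72% and 3.83%). With 1 library left out they were 10 and 5 without CD4SP replicate 1, 15 and 3 without CD4SP replicate 2, 16 and 5 without NKT replicate 1 and 8 and 9 without NKT replicate 2, beside 11% and 16.4%, 21.9% and 9.28%, 23.7% and 8.95%, and 13.2% and 16.2% of genes. The higher ones as deposited were the receptor *Notch2* (8 and 8 peaks against 5 and 6), the ligand *Jag1* (2 and 2 against 0 and 0), *Psenen* of the γ-secretase complex (4 and 4 against 3 and 3), *Rbpj* (8 and 8 against 7 and 6), *Maml1* (4 and 4 against 3 and 3), *Spen*, a corepressor partner of RBPJ (4 and 4 against 3 and 3), *Heyl* (2 and 4 against 0 and 1) and *Dtx4* (8 and 8 against 6 and 6). Lower in NKT were the coactivator *Maml2* (14 and 13 against 18 and 19), *Il2ra*, the IL-2 receptor α chain (6 and 7 against 11 and 10), and *Tcf7* (4 and 6 against 7 and 10).

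Between ILCP and CLP, 1 of the 44 was higher in ILCP without overlap and 4 lower, beside 4.53% and 9.69% of all genes. The 4 became 27 without CLP replicate 1 (46.3% of genes), 8 without ILCP replicate 2 (13.9%), 10 per 10000 peaks (18.5%) and 8 in covered base pairs (23.6%), and the 1 became 3 without ILCP replicate 1 (7.05%) and 4 per 10000 peaks (16.4%). *Hey1*, a repressor related to *Hes1*, was the higher one (3 and 3 peaks against 2, 1 and 1). *Notch2* (3 and 2 against 4, 10 and 10), *Adam17*, a protease that sheds Notch (4 and 2 against 5, 5 and 6), *Mfng* (0 and 0 against 1, 2 and 1) and *Maml3* (7 and 8 against 9, 23 and 20) were lower. No gene of the list had an adjusted p under 0.05 in any of the 3 comparisons, and its median differences were 0 for NKT, -0.667 for ILCP and 0.725 for thymus, beside 0, -0.5 and 0.45 over all genes tested.

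The genes whose windows took the most similar shares of the covered bases over the 9 libraries were found for each gene by Pearson's r, among 12475 to 12480 genes that had at least 3 peaks in some library. For *Dtx1* they were *Mc1r* and *Tubb3*, which neighbour each other (r = 0.991 each, with the same peak numbers of 2, 4, 2, 5 and 0 in every bone marrow library) and *Fnbp1* (r = 0.991). For *Notch1* they were *Fam120a* (0.982), *Nr2c2ap* (0.980) and *Slc44a2* (0.973), for *Notch3* *Optc* (0.992), *Mrpl4* (0.960) and *Icam1* (0.947), for *Hes1* *Lrp1* (0.910), *Fkbp14* (0.897) and *Irf5* (0.888), and for *Ptcra* *Iqcc* and *Dcdc2b* (0.993 each) and *Zfp771* (0.982). These are the highest of many correlations over 9 points that share their library and its number of peaks.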

How the data were processed

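ATAC-seq peak lists of 9 libraries were analysed. The authors aligned reads of 50 bp to mm10 with bowtie allowing 2 mismatches and called peaks separately for each library with MACS, and the submitters' processing notes name Bowtie, Picard and HOMER (versions not given in the sources used here). The deposited lists hold peak positions with the caller's score, whose formula is not given in the sources used here. The study's methods give a range of reads for the ATAC-seq libraries together and not the number of each, so that scores were used only as ranks within a library. The lists were taken as deposited, and whether duplicates were removed or reads shifted for the transposase is not given in the sources used here. The Runx1 ChIP library and its input were not analysed here.

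Peak starts were converted to positions counted from 1. Peaks sharing at least 1 bp were merged over all libraries, and a library with a peak on at least 1 bp of an interval counted as open there. Windows were protein-coding genes of GENCODE M21 extended by 20 kb, and sequence came from GRCm38.p6 or, for 4 of the 5 promoters, from RefSeq. Two-sided exact permutation tests over library labels compared peak numbers for the 17731 genes with a peak, and ranks for the 9464 intervals open in all 9 libraries, with Benjamini-Hochberg adjustment over all of them and a threshold of 0.05. Groups did not overlap when every library of one was above every library of the other. Motifs were searched on both strands.

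The 5 genes, the pathway and marker lists and the tests were chosen with earlier results of these data known. All intervals of the 5 genes were named, and of the pathway list those genes whose groups did not overlap. Sequences were those of intervals specific to a cell type or tissue, otherwise the one over the start site, and promoters covered by a peak, except stretches with over 30 untranslated bases (the *Dtx1* promoter and the center of the start-site intervals of *Notch1*, *Notch3* and *Dtx1*). *Dtx1* interval 5 and *Hes1* interval 1 were added. The alternatives took the 19343 highest-scoring peaks of each library, the higher-scoring 50%, windows extended by 5 kb or not at all, peak midpoints, peaks per 10000, open intervals or covered base pairs, peaks at other genes' starts left out, all genes tested, 50% coverage of an interval, intervals open in any library, ranks among shared intervals, absolute ranks, replicate blocks and each library left out. Scripts used Python 3.11.15, numpy 2.4.6, pandas 2.3.3, pysam 0.24.0 and matplotlib 3.10.9 and were tested on simulated data. Replicate numbers of NKT and CD4SP deviated together (correlation 0.526 over all genes) and those of ILCP and CLP did not (-0.0955), with 2 pairs each, and the labels do not tie the numbers to a shared animal or day.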

Additional observations from a re-analysis of the deposited data

How the results depend on the processing

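No peak number of the 5 genes passed the adjusted threshold as deposited, and 1 setting changed that, peaks per 10000, where *Dtx1* in thymus minus bone marrow was 1.55 (exact permutation test, adjusted p = 0.0495, with 2843 genes called). Small differences turned sign. NKT minus CD4SP at *Notch1* was -1 with equal peak numbers over 9 libraries, -0.5 with the higher-scoring 50%, -528 in covered base pairs and -1 with 33648 peaks from each thymic library, a setting chosen after seeing the data. Thymus minus bone marrow with equal peak numbers was -0.1 at *Notch1*, -0.6 at *Notch3* and -1 at *Hes1*, with the higher-scoring 50% -0.4 at *Notch3* and -0.6 at *Hes1*, and at *Hes1* -0.05 in unextended windows, -0.0688 per 10000 peaks and -403 in covered base pairs. The cause was not tested.

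With 1 library left out, NKT minus CD4SP ranged from -1.5 to 2.5 at *Notch1*, -2.5 to 1.5 at *Notch3*, -1.5 to 3.5 at *Dtx1* and -0.5 to 1.5 at *Hes1*, and thymus minus bone marrow from -0.25 to 0.5 at *Hes1* and from 5.13 to 6.8 at *Dtx1*. Intervals specific to a cell type were 0 to 5 for NKT, 0 to 3 for CD4SP, 0 to 1 for ILCP, 2 to 6 for CLP and 2 to 5 for thymus. The highest counts came without CD4SP replicate 2, CD4SP replicate 1, ILCP replicate 1, CLP replicate 1 and CD4SP replicate 1, beside 7.24%, 6.98%, 8.38%, 22.2% and 8.35% of all intervals in those settings. With intervals open in at least 1 library these counts were 3, 3, 1, 8 and 14, and 3 for bone marrow, beside 10.8%, 9.27%, 10.6%, 32.4%, 27.0% and 33.6% of all intervals. CD4SP had 1 with equal peak numbers (1.79% of all) and thymus 4 with 50% of the interval covered (7.32%).

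Ranks in ILCP minus CLP turned to -5.31 (among shared intervals) and -409 (absolute) at *Notch1* interval 9 and to -6.55 and -3191 at *Hes1* interval 3. *Ptcra* interval 3 passed in thymus minus bone marrow with these ranks (-42.2 and -6832, exact permutation test, adjusted p = 0.032 and 0.0333, where 33.6% and 34.1% of the shared intervals passed). Left-out libraries gave -20.8 to -15.8 for *Notch1* interval 9 in thymus minus bone marrow, and -2.64 to 7.40 in ILCP minus CLP and -0.849 to 4.46 in NKT minus CD4SP. *Hes1* interval 3 gave -2.85 to 6.69 and -2.89 to 24.3 in the latter pair, and *Ptcra* interval 3 -3.81 to 3.88 in NKT minus CD4SP.

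With the replicate number as a block, ILCP minus CLP was -2 at *Notch1* and -1.5 at *Notch3* (exact permutation p = 0.5 each, the smallest that 2 blocks of 1 pair allow), and thymus minus bone marrow was 5.75 at *Dtx1* and 1.75 at *Ptcra* (exact permutation p = 0.0556 each, the smallest possible here). The block kept only replicate numbers found in both groups, which left out CLP replicate 3. Without that library and with no block these differences were the same. The block was run on peak numbers as deposited, which held no adjusted call without it and none with it, and not on ranks or on peaks per 10000. The interval classes come from no test, and no paired count of them was run. Without peaks at other genes' starts, *Ptcra* had none in any library and gave no value.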
